A study of Mus musculus with 3 samples.

Results

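The genes of the proteasome were followed in J774A.1 cells, an established mouse macrophage-like cell line. Members were all genes whose name in the scanner files starts with Psm, then a letter from a to g and a digit. The rule found 44 of the 27597 genes named on the array, carried by 69 of 41174 probes. They comprise 8 alpha-ring genes, 4 structural and 3 catalytic beta-ring genes, 3 immunoproteasome genes, 6 base ATPases, 3 other base subunits, 8 lid subunits, 4 alternative caps, 3 assembly chaperones, 1 inhibitor and Psmc3ip, a meiotic recombination factor that shares only the name. The cells were kept for 6 h in 1 of 3 media. The first was Earle's Balanced Salt Solution (EBSS), which holds glucose and salts but no amino acids or serum, to which 10 µM SB202190, an inhibitor of p38 mitogen-activated protein kinase, was added. The second was EBSS alone and the third was RPMI with 10% fetal bovine serum. Total RNA was hybridised on 3 two-colour arrays in a loop, so that each condition was 1 sample read once in Cy5 and once in Cy3. All 10 macrophage markers looked up were well above background in all 6 channels. Of 18 markers of other cell types, 12 were above background in none, and the only one above it in all 6 was the haemoglobin gene Hba-a1.

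The proteasome degrades proteins tagged with ubiquitin. Its barrel-shaped core is built of alpha rings, which form the gate, and beta rings, of which 3 subunits carry the proteolytic sites. A regulatory particle with a base of ATPases and a lid that removes ubiquitin recognises, unfolds and feeds the substrates. Haematopoietic cells and cells exposed to interferon gamma replace the catalytic subunits Psmb5, Psmb6 and Psmb7 with Psmb8, Psmb9 and Psmb10, which gives the immunoproteasome and alters the peptides available to MHC class I. Transcription of the constitutive subunits is known to be raised by NRF1, encoded by Nfe2l1, through antioxidant response elements, and that of the immunoproteasome subunits and of the cap genes Psme1 and Psme2 by IRF1.

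The promoters of 2 immunoproteasome genes, of the constitutive genes that they replace and of the cap gene Psme1 are shown as background. That of Psmb10, the other immunoproteasome gene, is not printed. The comparison of replacing with replaced subunits uses no promoter sequence. Each line holds 250 bases before and 50 after the annotated start, 5′ to 3′ on the gene's strand, from RefSeq (GRCm38.p6). They lie at chr17:34197945-34198244, plus strand (Psmb8), chr14:54617946-54618245, minus strand (Psmb5), chr17:34187281-34187580, minus strand (Psmb9), chr11:70525107-70525406, plus strand (Psmb6) and chr14:55578244-55578543, plus strand (Psme1). Capitals mark a match on either strand to an interferon-gamma-activated site (GAS, TTCNNNGAA) in Psmb8, to an antioxidant response element (ARE, TGACNNNGC) in Psmb5 and Psmb6, to CCAAT in Psmb9 and to a core of the interferon-stimulated response element (ISRE, GAAANNGAA) in Psme1.
Psmb8: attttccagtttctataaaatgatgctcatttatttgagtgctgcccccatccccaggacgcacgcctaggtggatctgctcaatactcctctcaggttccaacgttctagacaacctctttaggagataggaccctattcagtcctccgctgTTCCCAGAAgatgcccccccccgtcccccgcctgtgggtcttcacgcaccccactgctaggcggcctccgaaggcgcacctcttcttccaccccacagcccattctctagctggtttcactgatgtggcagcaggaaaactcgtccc
Psmb5: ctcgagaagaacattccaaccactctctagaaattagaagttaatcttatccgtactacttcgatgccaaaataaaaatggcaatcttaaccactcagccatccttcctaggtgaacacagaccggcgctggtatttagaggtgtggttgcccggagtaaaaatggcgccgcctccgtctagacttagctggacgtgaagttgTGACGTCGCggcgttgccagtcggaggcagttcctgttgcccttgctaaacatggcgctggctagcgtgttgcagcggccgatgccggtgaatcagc
Psmb9: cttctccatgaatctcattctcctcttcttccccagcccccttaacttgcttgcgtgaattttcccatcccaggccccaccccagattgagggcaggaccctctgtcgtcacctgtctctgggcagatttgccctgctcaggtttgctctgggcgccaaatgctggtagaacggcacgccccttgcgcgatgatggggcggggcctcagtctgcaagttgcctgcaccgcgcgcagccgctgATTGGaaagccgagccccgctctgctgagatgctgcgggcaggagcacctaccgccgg
Psmb6: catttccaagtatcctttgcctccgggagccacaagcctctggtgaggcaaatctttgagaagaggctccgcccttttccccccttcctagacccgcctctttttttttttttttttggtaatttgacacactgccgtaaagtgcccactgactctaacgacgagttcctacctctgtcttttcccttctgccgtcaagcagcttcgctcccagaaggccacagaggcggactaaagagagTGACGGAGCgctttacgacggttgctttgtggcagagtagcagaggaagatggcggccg
Psme1: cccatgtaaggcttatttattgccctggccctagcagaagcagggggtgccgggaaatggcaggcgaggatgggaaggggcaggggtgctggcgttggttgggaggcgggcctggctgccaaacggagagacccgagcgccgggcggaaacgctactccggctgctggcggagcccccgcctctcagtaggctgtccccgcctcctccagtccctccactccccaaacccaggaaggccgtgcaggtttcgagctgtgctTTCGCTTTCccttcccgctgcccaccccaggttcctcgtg
The ARE match of Psmb5 starts 47 bases before the transcription start and that of Psmb6 starts 9 bases before it. The GAS match of Psmb8 starts 97 bases before the start. A promoter was matched for 37 of the 44 members. The ARE letters were found in 16.2% of these and in 14.0% of the 27025 genes with a promoter in the table, CCAAT in 37.8% and 41.1%, the GAS letters in 5.41% and 9.55%, and the ISRE core in 16.2% and 9.76%. The letters GGGCGG of a GC box, which are not capitalised and overlap no motif shown, were found in 59.5% of the members and 38.2% of all genes. CCAAT was present in 5 of 7 alpha-ring promoters. Of the 3 immunoproteasome promoters, 1 held the GAS letters and none held the ISRE core or the ARE letters. The promoter of Psmb10 held none of the motifs named here. Such matches describe letters in a window and were not tested for binding. In the RefSeq gene order, Psmb9, Tap1, Psmb8 and Tap2 follow each other on chromosome 17, where Tap1 and Tap2 encode the peptide transporter of MHC class I, and Psme1 and Psme2 lie on either side of Emc9 on chromosome 14.

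Values below are log2 ratios of normalized intensities. Each combines the array that held both conditions (weight 2/3) with the path through the other 2 arrays, so that an effect of the dye on a gene cancels. Errors are technical standard errors and lie between 0.11 and 0.18 for the measured members. They were taken from the spread of the sum of the 3 array ratios around its median among probes of like intensity. An offset of that sum shared by such probes is not included. With 1 sample per condition there is no replicate of the cultures and no test, and differences are described by size. A gene was called measured if, for at least 1 of the compared conditions, both of its channels were well above background. It was counted where the log2 ratio reached 0.5 in size with at least 0.25 the same way on both paths. In total 43 of the 44 members were measured in each comparison. The exception was Psma8, the testis form of an alpha subunit, whose probe was not well above background in any channel. The probes of 42 of the 43 were brighter than the median probe of all measured genes, which sets where they lie on the intensity scale of the normalization and does not rank transcript levels.

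The immunoproteasome genes as a class lay below the family median in EBSS without the inhibitor. Psmb9 was lower in EBSS than in RPMI after loess normalization, with a log2 ratio of -0.81 ± 0.13 or 0.569 times the level, though at 0.39 under median centring. It was higher with SB202190 than in EBSS alone by 0.81, which median centring left at 0.087, below the size counted. Psmb8 and the cap gene Psme1 showed the same order at -0.62 and -0.74 in EBSS over RPMI. Single genes of other classes were as low as Psmb8, among them Psmd7 (-0.67), Psmd6 (-0.67) and Psmd5 (-0.62), and Psmb10 at -0.42 lay within the range of the alpha ring. The base ATPases stayed between -0.11 and 0.46 in the same comparison. Median centring raised all members in this comparison, but the gap between the immunoproteasome genes and the family median kept its direction under all 10 settings. It was -0.55 to -0.32 in EBSS over RPMI and 0.20 to 0.46 in EBSS with SB202190 over EBSS. These settings overlap. The other filters on dim probes could hardly move the gap, because every measured member was above background in all 6 channels. The authors' table repeats the scanner's log ratios, and the single paths are parts of the main estimate.

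Psmb9, the immunoproteasome subunit that replaces Psmb6, read 13.10 (Cy5) and 13.11 (Cy3) normalized log2 intensity in EBSS with SB202190, 12.30 and 12.21 in EBSS, and 13.03 and 13.10 in RPMI. Both EBSS channels lay below all 4 others, which spanned a narrow range. Its ratio was -0.82 on the array with both conditions and -0.80 through the other 2 arrays in EBSS over RPMI. EBSS with SB202190 did not differ from RPMI beyond the technical error, at -0.00 ± 0.13. Psmb8, which replaces the chymotrypsin-like subunit Psmb5, read 13.66 and 13.84 in EBSS with SB202190, 13.23 and 13.22 in EBSS, and 13.72 and 13.91 in RPMI. Here too the EBSS channels lay below the other 4. The log2 ratio of Psmb8 was -0.62 ± 0.18 in EBSS over RPMI, 0.49 in EBSS with SB202190 over EBSS and -0.13 in EBSS with SB202190 over RPMI. Under median centring the sign of Psmb8 turned in both comparisons with EBSS, to 0.65 in EBSS over RPMI and -0.28 in EBSS with SB202190 over EBSS. A second Psmb8 probe gave -0.68, 0.51 and -0.16.

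Psmb10, which replaces the trypsin-like subunit Psmb7, read 14.11 and 14.45 in EBSS with SB202190, 14.09 and 14.10 in EBSS, and 14.40 and 14.39 in RPMI. The EBSS channels were again the lowest, but one channel with SB202190 nearly reached them. The ratio of Psmb10 was -0.42 ± 0.18 in EBSS over RPMI, below the size counted, and 0.25 in EBSS with SB202190 over EBSS, where the paths differed at 0.36 and 0.03. Under median centring these were 0.92 and -0.57.

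**Figure D1:**
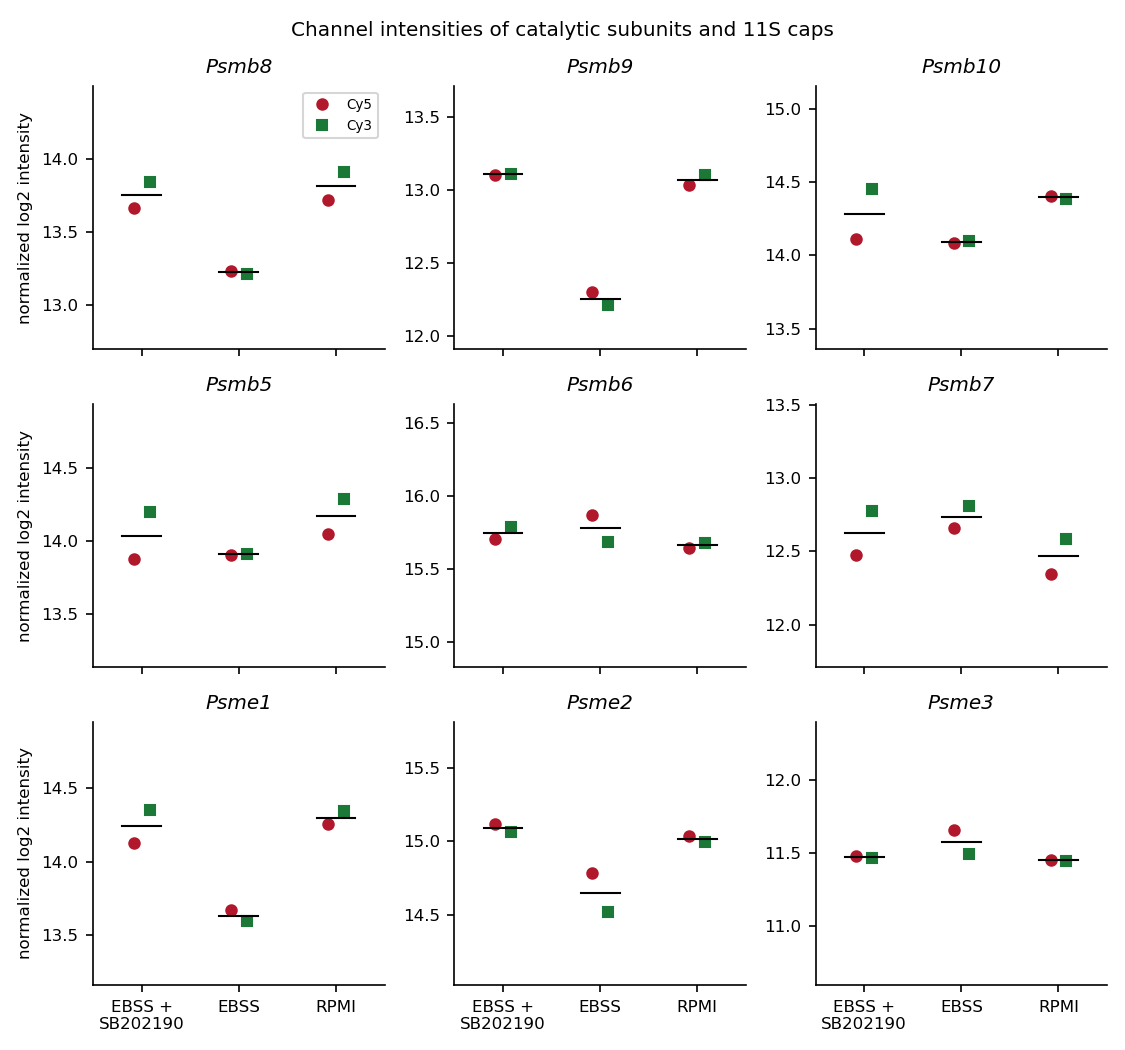
Normalized log2 intensity (vertical axis, 1.8 units in each panel) of the immunoproteasome genes, the constitutive catalytic subunits and the 11S cap genes in EBSS with SB202190, EBSS and RPMI. Circles are Cy5 channels, squares are Cy3 channels and bars are their mean. Both EBSS channels lie below the other 4 for Psmb8, Psmb9, Psme1 and Psme2, and narrowly for Psmb10, but not for Psmb5, Psmb6 and Psmb7.

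The constitutive catalytic subunits did not share this order. Psmb5, the chymotrypsin-like subunit, read 13.87 and 14.19 in EBSS with SB202190, 13.90 and 13.91 in EBSS, and 14.05 and 14.29 in RPMI. Its EBSS channels lay within the range of those with SB202190 and below those in RPMI, with a log2 ratio of -0.32 ± 0.18 in EBSS over RPMI that was -0.13 on the shared array and -0.70 through the others. Psmb6, the caspase-like subunit, read 15.71 and 15.79 in EBSS with SB202190, 15.87 and 15.69 in EBSS, and 15.65 and 15.68 in RPMI, so that its values overlapped between EBSS with SB202190 and EBSS. Its ratio was 0.06 ± 0.18 in EBSS over RPMI and -0.06 in EBSS with SB202190 over EBSS, both within the technical error. Psmb7, the trypsin-like subunit, had a ratio of 0.23 ± 0.13 in EBSS over RPMI, but the paths disagreed in sign at 0.46 and -0.22.

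Differences between each replacing subunit and the subunit replaced do not depend on a shift common to both. They can move with a correction that depends on intensity where the probes differ in brightness. Psmb9 (mean log2 intensity 12.81) and Psmb6 (15.72) did differ. Median centring put them at 0.39 and 1.53 in EBSS over RPMI, further apart than after loess. The differences below are after loess. The log2 ratio of Psmb9 minus that of Psmb6 was -0.88 ± 0.22 in EBSS over RPMI, 0.87 in EBSS with SB202190 over EBSS and -0.01 in EBSS with SB202190 over RPMI. For Psmb10 minus Psmb7 it was -0.65 ± 0.22, 0.37 and -0.28. For Psmb8 minus Psmb5 it was -0.30 ± 0.26, 0.39 and 0.09, the smallest of these differences in EBSS over RPMI and within 2 standard errors. The Psmb10 and Psmb8 differences in EBSS with SB202190 over EBSS were also within 2 standard errors. So were all differences in EBSS with SB202190 over RPMI. The first and second of these comparisons share the EBSS sample, and the third is their sum in this fit.

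The 11S caps, which open the core gate without ATP, divided in the same way. Psme1, a subunit of the interferon-inducible cap PA28, read 14.13 and 14.35 in EBSS with SB202190, 13.67 and 13.59 in EBSS, and 14.26 and 14.34 in RPMI. Its EBSS channels lay well below the other 4, with ratios of -0.74 ± 0.18 in EBSS over RPMI and 0.60 in EBSS with SB202190 over EBSS, which median centring turned to 0.58 and -0.19. Psme2, its partner in the same ring, read 15.12 and 15.06 in EBSS with SB202190, 14.78 and 14.52 in EBSS, and 15.04 and 15.00 in RPMI. EBSS was again lowest, and the ratios of -0.40 and 0.40 were of equal size and opposite sign but below the size counted, and under median centring Psme2 was at 1.00 and -0.45. Psme3, the nuclear relative of this cap that is not induced by interferon, was at 0.10 ± 0.11 in EBSS over RPMI and -0.13 with SB202190 over EBSS. Psme4, the large activator PA200, was higher in EBSS than in RPMI by 0.36 ± 0.18, and its second probe well above background in all channels gave 0.36 too.

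**Figure D2:**
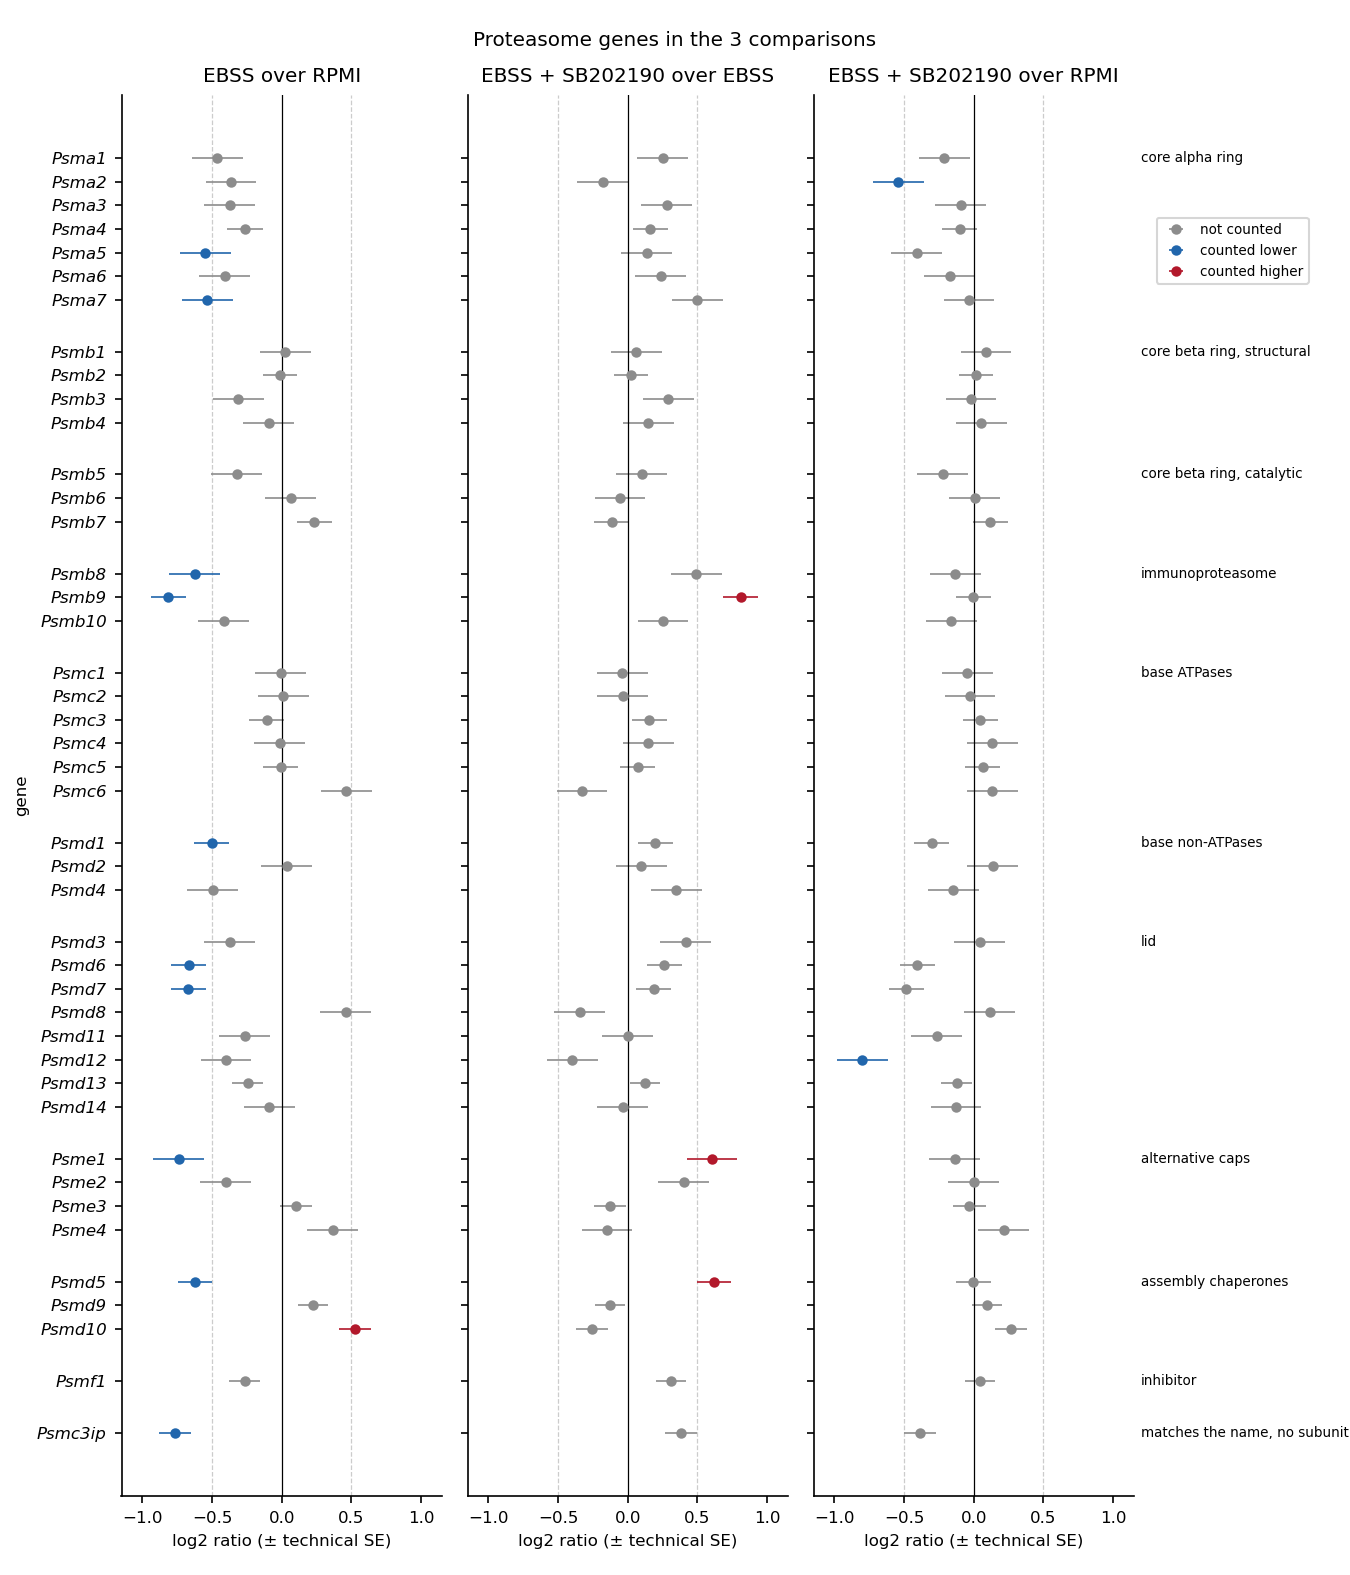
Log2 ratio (horizontal axis) of the 43 measured proteasome genes, grouped by role, in EBSS over RPMI, EBSS with SB202190 over EBSS and EBSS with SB202190 over RPMI. Bars are technical standard errors, dashed lines mark 0.5 in size, blue and red points are genes counted lower and higher. In EBSS over RPMI 10 genes are counted lower and 1 higher after loess normalization, whereas under median centring all 43 lie above 0.

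Over the whole family, 10 of 43 genes were counted lower in EBSS than in RPMI and 1 was counted higher, where the background over 11855 measured genes was 11.4% lower and 13.0% higher. The median log2 ratio of the members was -0.27, against 0.003 for all measured genes, and 32 of 43 lay below 0, against 49.6% of all measured genes. This direction did not survive median centring, a scaling that applies no intensity-dependent correction. It moved the median of all measured genes to 0.81 and that of the members to 1.02, so that the members lay 0.21 above all genes instead of below them, and no member was counted lower. No member reached a log2 ratio of 1 with at least 0.5 on both paths, a size reached by 4.48% of measured genes upward and 2.83% downward.

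The alpha ring, whose subunits shape the gate, was the most uniform class in EBSS over RPMI. All 7 measured genes lay between -0.55 and -0.26, with a median of -0.41. Psma5 (-0.55 ± 0.18) and Psma7 (-0.53 ± 0.18) were counted lower. Psma7 read 15.15 and 15.44 in EBSS with SB202190, 14.83 and 14.86 in EBSS, and 15.29 and 15.30 in RPMI, the order also seen for Psme1. With SB202190 over EBSS it was at 0.50, just under the counted size, and at -0.37 under median centring. Psma2 had no such gain with the inhibitor: it read 14.79 and 14.58 in EBSS with SB202190, 14.88 and 14.68 in EBSS, and 15.17 and 15.20 in RPMI. It was thereby counted lower in EBSS with SB202190 over RPMI, at -0.54 ± 0.18, though at 0.0057 under median centring. The 4 structural beta subunits were between -0.31 and 0.03 in EBSS over RPMI and none was counted.

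The base ATPases, the ring of motors that unfolds substrates, stood close to all measured genes after loess but not under median centring. That setting put their median at 1.29 in EBSS over RPMI, against 0.81 for all measured genes. After loess, 5 of the 6 lay between -0.11 and 0.01 in EBSS over RPMI. The other, Psmc6, read 14.97 and 14.59 in EBSS with SB202190, 15.02 and 15.25 in EBSS, and 14.89 and 14.73 in RPMI, with a ratio of 0.46 ± 0.18. Its EBSS channels were the highest of the 6, but a dimmer probe of Psmc6 gave 0.02, so that its probes disagreed. Of the other base subunits, Psmd1, a scaffold, was counted lower at -0.50 ± 0.13, Psmd4, a ubiquitin receptor, was at -0.49 ± 0.18 with a second and much dimmer probe at 0.05, and Psmd2, the other scaffold, was at 0.04 ± 0.18.

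Lid subunits spread more widely. Their median was -0.32 in EBSS over RPMI after loess, with 2 of 8 counted lower and none counted higher. Over all measured genes, 11.4% were counted lower and 13.0% higher. Under median centring the lid median was 1.02, with Psmd6 at 0.57 and Psmd7 at 0.54. The other lid values here are after loess. Psmd6 read 13.33 and 13.09 in EBSS with SB202190, 12.76 and 13.07 in EBSS, and 13.68 and 13.80 in RPMI. All channels without serum lay below RPMI, and the ratios were -0.67 ± 0.13 in EBSS and -0.41 in EBSS with SB202190, both over RPMI. Psmd7 was at -0.67 ± 0.13 in EBSS over RPMI, with -0.45 on the shared array and -1.11 through the others, and its other probe above background gave -0.35. Psmd8 went the opposite way and read 14.31 and 14.16 in EBSS with SB202190, 14.52 and 14.71 in EBSS, and 14.27 and 14.18 in RPMI. Its EBSS channels were the highest, at 0.46 ± 0.18 over RPMI, and the ratio with SB202190 over EBSS was -0.34. Psmd14, the deubiquitinase of the lid, was at -0.09 and -0.04 in these comparisons.

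Psmd12, another lid subunit, was the lowest member in both comparisons of EBSS with SB202190. It read 13.98 and 14.04 in EBSS with SB202190, 14.37 and 14.50 in EBSS, and 14.83 and 14.84 in RPMI. The 3 conditions did not overlap. The ratio was -0.80 ± 0.18 in EBSS with SB202190 over RPMI, or 0.575 times the level, which the 2 dimmer Psmd12 probes gave as -0.58 and -0.59. After loess the brightest probe divided this difference evenly, with -0.40 in EBSS over RPMI and -0.40 in EBSS with SB202190 over EBSS. The other probes gave -0.13 and -0.46, and -0.41 and -0.17. Under median centring the brightest probe was at 0.94 in EBSS over RPMI and -1.21 in EBSS with SB202190 over EBSS. In EBSS with SB202190 over RPMI it was then at -0.27, below the size counted.

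The chaperones that assemble the base differed among themselves. Psmd5 read 12.77 and 12.69 in EBSS with SB202190, 12.17 and 11.92 in EBSS, and 12.65 and 12.67 in RPMI. The EBSS channels were lowest, with ratios of -0.62 ± 0.12 in EBSS over RPMI and 0.62 in EBSS with SB202190 over EBSS, at 0.55 and -0.091 under median centring. Psmd10, also known as gankyrin, read 11.59 and 11.47 in EBSS with SB202190, 11.77 and 11.69 in EBSS, and 11.21 and 11.28 in RPMI. The conditions did not overlap, and Psmd10 was the only member counted higher in EBSS over RPMI, at 0.53 ± 0.11. Without background correction it was at 0.47, below the size counted. Psmd9 was at 0.22 ± 0.11. The core chaperones Psmg1, Psmg2 and Psmg3 carry older names in the files, lie outside the rule and were at -0.44, -0.41 and -0.20 in EBSS over RPMI and at 0.58, 0.50 and 0.47 in EBSS with SB202190 over EBSS. Psmf1, an inhibitor of the core, was at -0.27 ± 0.11 and 0.31. Psmc3ip, which is no subunit, was at -0.77 ± 0.11 and 0.38, and without it 9 of 42 members were counted lower in EBSS over RPMI.

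**Figure D3:**
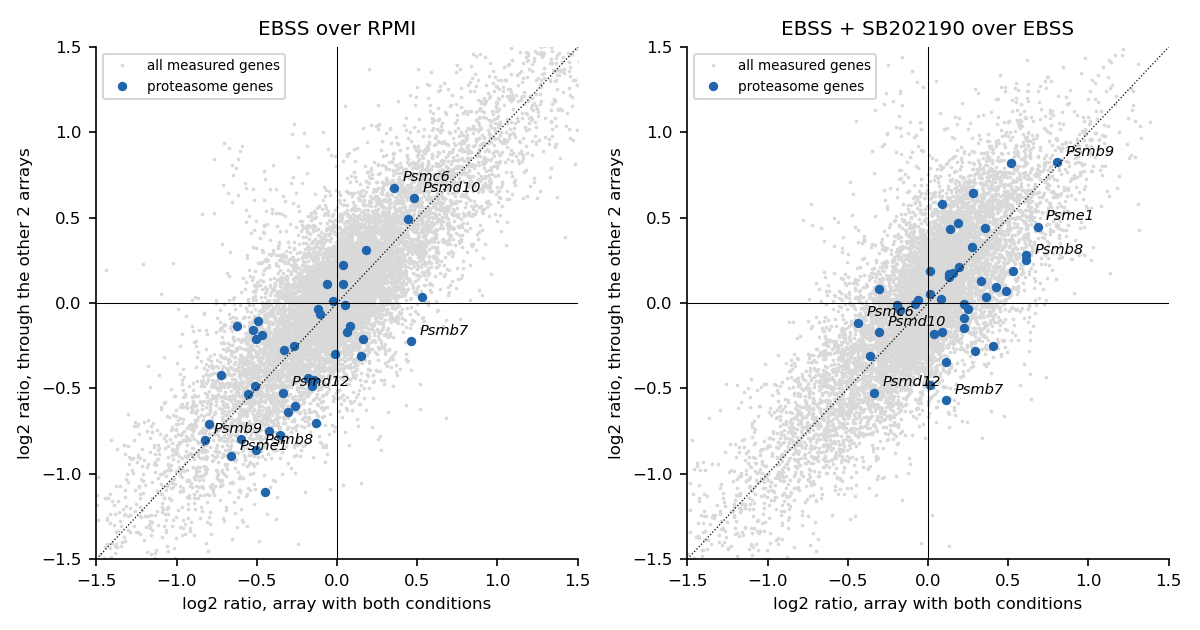
Log2 ratio through the other 2 arrays (vertical axis) against the log2 ratio on the array that held both conditions (horizontal axis) for EBSS over RPMI and for EBSS with SB202190 over EBSS. Blue points are the 43 measured proteasome genes, grey points are all measured genes within the axes and the dotted line marks equality. Psmb9 lies near equality in both panels, at -0.82 and -0.80 and at 0.80 and 0.82, whereas Psmb7 differs in sign between the paths. The gap between the paths of a gene is the same in both panels by construction, so the second panel adds no separate agreement.

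When SB202190 was present in EBSS, 3 of 43 members were counted higher than in EBSS alone and none was counted lower, where the background over 11675 measured genes was 7.12% higher and 10.9% lower. The 3 were Psmb9, Psme1 and Psmd5. The members' median was 0.15, against 0.001 for all measured genes, but under median centring it lay 0.20 below that of all genes, so the direction of the family as a whole again depended on the scaling. At a size of 1 no member was counted, against 0.882% of genes upward and 2.92% downward. After loess the immunoproteasome median was 0.49 and that of the ATPases 0.02, with the alpha ring at 0.24 and the lid at 0.06. Under median centring these were -0.28, -0.78, -0.58 and -0.70.

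In EBSS with SB202190 over RPMI, most members lay close to 0 after loess, whereas under median centring 41 of 43 lay above 0. The median was -0.03 after loess and 0.44 under median centring, where that of all genes was 0.34, and the members' offset from all genes was -0.05 and 0.10. After loess, 2 of 43 genes were counted lower (Psma2 and Psmd12) and none higher, beside backgrounds of 9.24% lower and 7.0% higher over 11845 genes. None was counted at a size of 1, against 2.43% downward and 1.47% upward. The highest members were Psmd10 at 0.27 ± 0.11, Psme4 at 0.22 ± 0.18, Psmd2 at 0.13, Psmc4 at 0.13 and Psmc6 at 0.13. After Psmd12 and Psma2, the lowest were Psmd7 at -0.48, Psma5 at -0.41 and Psmd6 at -0.41. Since EBSS enters both of the other comparisons, an opposite sign in them can arise from the EBSS sample alone and was not read as a reversal by the inhibitor.

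**Figure D4:**
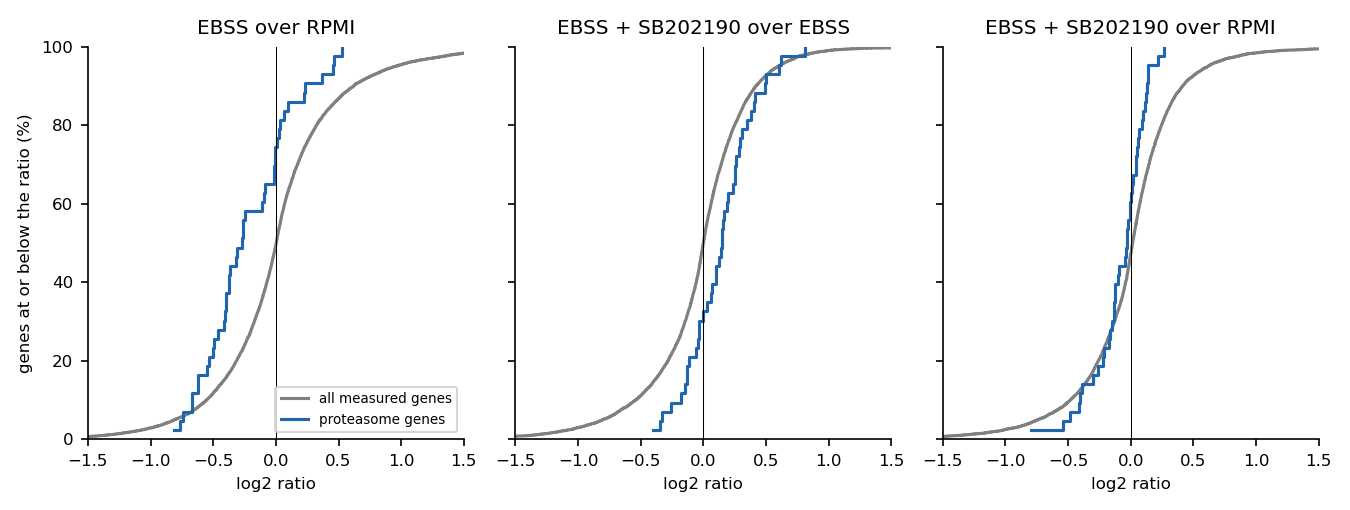
Share of genes at or below each log2 ratio (vertical axis, percent) for the 43 measured proteasome genes (blue) and all measured genes (grey) in the 3 comparisons, after loess normalization. The members' median is -0.27, 0.15 and -0.03 from left to right, and the offset from all genes turns round under median centring in each panel.

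The places of the immunoproteasome genes and the ATPases relative to the family median did not turn with the scaling. In EBSS over RPMI the immunoproteasome genes lay at -0.36 from that median and the ATPases at 0.26 after loess. Over the 10 settings, which overlap, the ATPases kept to 0.10 to 0.29. In EBSS with SB202190 over EBSS the immunoproteasome genes lay 0.35 above the median and the ATPases at -0.13, with ranges of 0.20 to 0.46 and -0.13 to -0.08. The alpha ring (-0.31 to 0.04 in EBSS over RPMI) and the lid (-0.24 to 0.00) did not keep a clear place. The immunoproteasome class holds 3 genes, so that its median is the value of 1 of them in each setting.

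**Figure D5:**
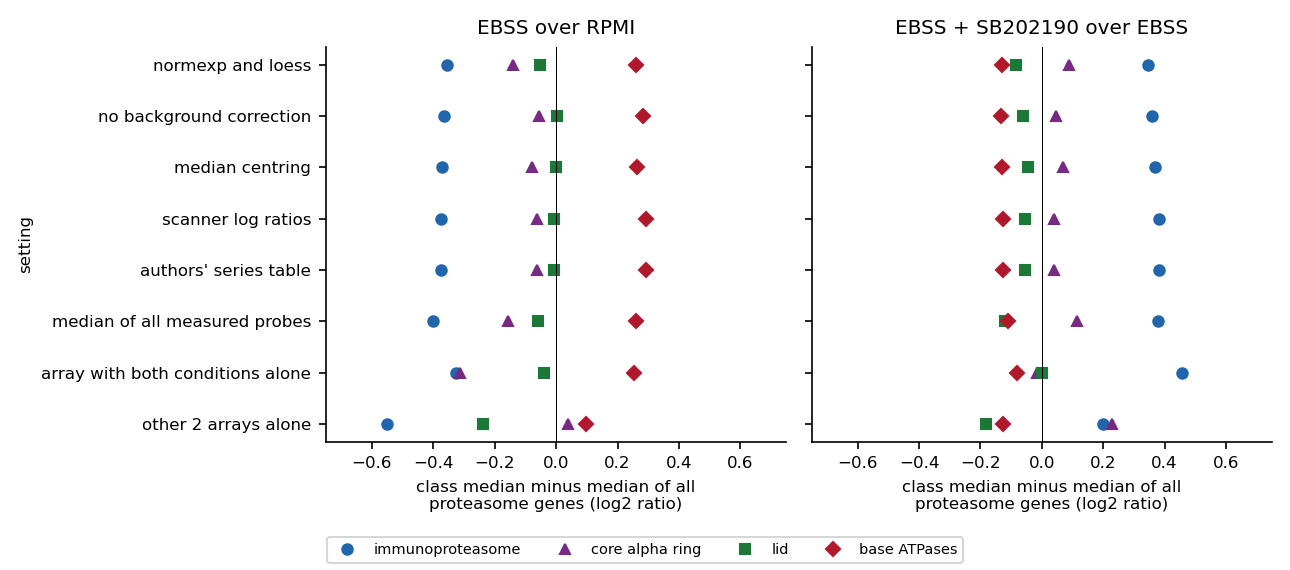
Median log2 ratio of 4 classes minus the median of all proteasome genes (horizontal axis) under 8 of the 10 settings (vertical axis), for EBSS over RPMI and EBSS with SB202190 over EBSS. The immunoproteasome points lie between -0.55 and -0.32 in the first panel and between 0.20 and 0.46 in the second, apart from the ATPase points in each setting.

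After loess, several genes around the proteasome lay further from 0 than any subunit. Of 7 genes of the NRF1 pathway, 3 were higher in EBSS than in RPMI at a size of 1: Maff (2.21 ± 0.11) and Mafk (1.36 ± 0.11), small partners of NRF1 on DNA, and Nfe2l1 itself (1.09 ± 0.18). Over all measured genes 4.48% reached that size upward. With SB202190 over EBSS, Maff (-1.65) and Mafg (-1.01) were lower at that size and Nfe2l1 was at -0.86, whereas Ddi2, the protease that activates NRF1, was counted higher at 0.62 and Ngly1 was at 0.20. Of 20 partners outside the naming rule, 2 were higher in EBSS over RPMI at that size, Zfand2a (2.07 ± 0.13) and Zfand5 (1.92 ± 0.11), zinc-finger proteins that bind the 26S proteasome under stress. None of the 20 was lower at that size, and Uchl5, a deubiquitinase of the base, was lower at the size of 0.5, at -0.76 ± 0.18. Akirin2, which carries proteasomes into the nucleus, was at 0.92 in EBSS over RPMI and -1.22 in EBSS with SB202190 over EBSS.

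The neighbours and regulators of the immunoproteasome genes differed less between EBSS and RPMI after loess. Of 11 genes of MHC class I presentation and its interferon regulators, none was counted in EBSS over RPMI, with a range of -0.17 to 0.24. Over all measured genes, 13.0% were counted higher and 11.4% lower in that comparison. Tap1 and Tap2, next to Psmb9 and Psmb8 in the genome, were at -0.04 ± 0.11 and -0.02 ± 0.11, and at 0.32 and 0.03 in EBSS with SB202190 over EBSS. Irf1, a transcription factor that activates Psmb9, was at -0.15 ± 0.13 in EBSS over RPMI and at 1.06 in EBSS with SB202190 over EBSS. It was the only gene of this list counted at a size of 1, which 0.882% of all measured genes reached upward in the latter comparison. The part of these neighbours and regulators in the values of the proteasome genes was not tested. Values of all genes outside the naming rule are after loess, and their dependence on the scaling was not examined.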

How the data were processed

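Total RNA of J774A.1 cells was amplified, labelled and hybridised on 3 two-colour Agilent arrays of 1 slide, per the labels. In Cy5 over Cy3, the arrays set RPMI against EBSS (array 1), EBSS against EBSS plus inhibitor (array 2), and EBSS plus inhibitor against RPMI (array 3). The series' design text is ambiguous on the medium, and conditions were taken from the source names. The sources used here do not say if both channels of a condition hold 1 extract, nor if EBSS alone held the inhibitor's solvent.

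Per the submitters' processing notes, the software that read the spots was Agilent Feature Extraction 9.5.3.1. The deposited mean spot and median background intensities are not normalized, per the file headers. A deposited log10 ratio of the dyes comes from processed intensities that the software background-subtracted and dye-normalized, per the file headers. The log2 ratios in the authors' table for the series equal those ratios, without centring (medians -0.0854, -0.0766 and -0.166), so its scale, centring and direction are known. Deposited marks of other kinds flag spots well above background, controls and outliers.

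Mean intensities were corrected with normexp (offset 50) and normalized by loess in limma 3.58.1 (R 4.3.3), with control spots (1639 of 45018 per array) at weight 0 and outlier spots (136 to 178) left out. No spot was saturated, and 40.1% to 49.9% were well above background per channel. For genes with several probes, the brightest on average was used. The loop estimate was checked on simulated data. Technical errors come from 30 intensity bins and cover neither culture nor extraction. Genes were named through RefSeq accessions or symbols, and 8072 of the 41174 probes kept the file's name. The members, lists and rules were chosen with earlier results of these data known. Values are given for the immunoproteasome, catalytic and PA28 genes, the 5 highest and 5 lowest members per comparison, and, of other lists, genes counted at a size of 1 or the 3 largest; some genes of these lists are not reported here. Other members named, a few genes that a count or contrast turns on, were chosen after their values were seen. The 8 other settings and the authors' table are compared in the closing section.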

Additional observations from a re-analysis of the deposited data

How the results depend on the processing

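Either other filter on dim probes, and the median of all measured probes, left each count of proteasome genes within 1.5 times of that reported. Median centring changed them most. In EBSS over RPMI it gave 29 members counted higher, 0 counted lower and 19 at a size of 1, and a members' median 0.21 above that of all genes. In EBSS with SB202190 over EBSS it gave 0 higher, 1 lower and a median difference of -0.20, and in EBSS with SB202190 over RPMI 0 lower. Counted genes that changed sign under it were, in EBSS over RPMI, Psma5 (0.91), Psma7 (0.88), Psmb8 (0.65), Psme1 (0.58), Psmd6 (0.57), Psmd1 (0.70), Psmd5 (0.55), Psmd7 (0.54), Psmb9 (0.39) and Psmc3ip (0.29). In EBSS with SB202190 over EBSS they were Psmd5 (-0.091) and Psme1 (-0.19), and in EBSS with SB202190 over RPMI Psma2 (0.0057). The cause was not tested; the setting lacks the intensity-dependent step of loess, and nearly all members are bright. Members counted higher in EBSS over RPMI numbered 2 without background correction, with the scanner's log ratios, with the authors' series table (an alternative chosen after seeing the data) and through the other 2 arrays alone, which also gave 1 gene at a size of 1, Psmd7. Through those arrays 2 members were lower in EBSS with SB202190 over EBSS and 2 higher in EBSS with SB202190 over RPMI. The array with both conditions alone gave 6 members higher in EBSS with SB202190 over EBSS. The difference of Psmb9 and Psmb6 in EBSS over RPMI reached -1.14 with median centring and -1.10 without background correction. No paired analysis was possible because each condition has 1 sample and the result comes from no test. The dimmest member, Psma8, has only a bound in all conditions, and no alternative can stand for the missing replicate cultures.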
